A study of Mus musculus with 8 samples.

Results

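Megakaryocyte and platelet genes were examined in haematopoietic stem cells of the mouse fetal liver that lacked ADAR1, carried a single working copy, or carried both. The 10 genes were Pf4, Itga2b, Itgb3, Gp1ba, Gp1bb, Gp9, Gp5, Ppbp, Vwf and Treml1. They were chosen by name as the classical markers of the lineage, and every probe set that the array's annotation assigns to one of them was used. Of the 10 genes, 9 had a probe set of their own, with 11 probe sets between them out of 45037 tested. A further probe set names both Gp1bb and Septin5, which makes 12 in all. The annotation used here lists no probe set for Gp1ba.

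The cells came from C57/B6 mice and had the surface phenotype Lin-Sca+Kit+, which selects blood-forming stem and progenitor cells without lineage markers. The groups were ADAR1 null (-/-, 3 arrays), ADAR1 heterozygous (+/-, 3 arrays) and wild type (2 arrays). Each array holds RNA of 1 mouse, labelled with biotin after amplification on Affymetrix arrays. The sources used here do not give embryonic age, the design of the null allele or the driver of any Cre. ADAR1, the product of Adar, changes adenosine to inosine in double-stranded RNA. The deposited values are RMA intensities on a linear scale. Differences are given as log2 units with the standard error (SE) of limma, a linear model with a shared spread, and p was adjusted by Benjamini-Hochberg over all tested probe sets. A difference passed the test at an adjusted p under 0.05.

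Megakaryocytes are the bone marrow and fetal liver cells that shed platelets, and they arise from stem cells through progenitors shared with the red cell line. Platelets stick to a damaged vessel wall when the GPIb-IX-V complex (Gp1ba, Gp1bb, Gp9 and Gp5) grips von Willebrand factor (Vwf). They then aggregate through the integrin made of the αIIb chain (Itga2b, also known as CD41) and the β3 chain (Itgb3), and they release chemokines such as Pf4 and Ppbp from their alpha granules. Several of these genes are also read in stem cells: Itga2b marks the first blood-forming cells of the embryo, and Vwf marks a platelet-biased set of adult stem cells in the mouse.

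The promoters of 8 of the 10 genes are in the RefSeq promoter table (build GRCm38.p6). The 250 bases before the start of transcription are printed for 5 of them: Itga2b, whose null arrays all read above all controls, Pf4, which barely varied, and Gp1bb, Gp9 and Gp5, the measured subunits of the GPIb-IX-V complex, which did not vary alike. Sequences run 5′ to 3′ on the gene's strand. Capitals mark the letters GATAA, the core bound by GATA factors, and AGGAAG, a core bound by ETS factors, on either strand, so that TTATC and CTTCCT are their reverse forms.
Itga2b (chr11:102469884-102470133, minus strand): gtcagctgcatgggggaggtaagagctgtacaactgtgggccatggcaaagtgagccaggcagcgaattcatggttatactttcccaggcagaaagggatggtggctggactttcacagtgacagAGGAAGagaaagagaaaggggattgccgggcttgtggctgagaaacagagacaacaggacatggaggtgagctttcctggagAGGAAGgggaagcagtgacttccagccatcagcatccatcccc
Pf4 (chr5:90772185-90772434, plus strand): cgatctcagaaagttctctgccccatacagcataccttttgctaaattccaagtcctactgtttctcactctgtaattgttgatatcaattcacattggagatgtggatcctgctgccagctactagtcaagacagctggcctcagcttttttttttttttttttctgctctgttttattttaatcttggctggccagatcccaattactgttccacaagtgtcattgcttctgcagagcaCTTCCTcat
Gp9 (chr6:87777820-87778069, plus strand): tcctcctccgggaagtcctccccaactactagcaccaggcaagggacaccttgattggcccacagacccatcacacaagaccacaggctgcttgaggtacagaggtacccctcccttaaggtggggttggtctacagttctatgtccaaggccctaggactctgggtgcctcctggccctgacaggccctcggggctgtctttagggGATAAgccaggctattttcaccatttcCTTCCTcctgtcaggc
Gp5 (chr16:30310782-30311031, minus strand): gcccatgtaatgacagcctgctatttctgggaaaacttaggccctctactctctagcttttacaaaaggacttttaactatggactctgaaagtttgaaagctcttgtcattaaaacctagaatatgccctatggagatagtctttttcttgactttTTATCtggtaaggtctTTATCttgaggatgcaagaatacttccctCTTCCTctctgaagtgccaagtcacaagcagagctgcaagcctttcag
Gp1bb (chr16:18622404-18622653, minus strand): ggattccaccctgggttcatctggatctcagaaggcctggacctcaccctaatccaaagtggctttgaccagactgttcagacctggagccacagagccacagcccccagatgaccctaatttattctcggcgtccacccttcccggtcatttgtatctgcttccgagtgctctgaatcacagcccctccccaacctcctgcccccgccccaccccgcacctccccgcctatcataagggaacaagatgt
AGGAAG was found in 5 of the 8 member promoters (Gp1ba, Gp5, Gp9, Itga2b and Pf4), against 29.2% of 27025 promoters of the same length. GATAA was found in 3 of 8 (Gp1ba, Gp5 and Gp9), against 23.0% of all. CCGGAA, another ETS core, was in 0 of 8 against 12.2%, and TATAAA in 1 of 8 (Ppbp), against 3504 of the 27025. In Gp9 the GATAA begins 43 bases and the reversed AGGAAG 16 bases before the start, and in Itga2b the 2 AGGAAG copies begin 125 and 43 bases before it. The Gp1bb stretch holds none of these letters. Both strands were searched, and no matches shown overlap. A match of letters is a description and no evidence of binding.

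All 11 probe sets of the members read above background on all 8 arrays, background being the highest of 27 bacterial control probe sets on an array (6.20 to 9.29 linear units). Of 17 measured stem and progenitor markers, Kit, a receptor of the sort, read 9.33 to 23.5 linear units at its brightest probe set and was above background on all 8 arrays. Mycn (61.4 to 491), Mllt3 (47.4 to 216), Angpt1 (38.6 to 169), Hmga2 (23.8 to 187) and Cd34 (13.8 to 32.2) were above it on all 8 too, and Procr and Lin28b were at background on every one. Ly6a, which encodes Sca-1, has no probe set of its own in the annotation used. The share of probe sets above background was 40.0% to 46.4% on null arrays, 51.2% to 61.2% on heterozygous arrays and 45.6% to 51.5% on wild-type arrays. The ratio of the Gapdh 3′ to 5′ probe sets, a sign of RNA length, was 7.45 to 8.73 on null, 4.78 to 9.0 on heterozygous and 4.32 to 4.39 on wild-type arrays. Adar itself read 59.7, 144 and 176 on the null arrays, against 13.1, 16.1 and 9.89 on heterozygous and 7.66 and 17.6 on wild-type arrays at its brightest probe set. Probe positions and the deleted exons are not given, so Adar checks no label here. Precision is limited throughout by the number of arrays.

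No measured member passed the test between genotypes. In null against all 5 control arrays, Itga2b had the smallest p and Gp1bb the largest difference, and none of the 11 probe sets passed (0 of 11, where 0.582% of all tested probe sets passed). Likewise 0 of 11 passed in null against heterozygous (0.502% of all), null against wild type (0.326% of all) and heterozygous against wild type (0.00222% of all). At an unadjusted p under 0.05, limma counted 1 of 11 in null against all controls (11.5% of all probe sets), 2 of 11 in null against heterozygous (11.3%), 1 of 11 in null against wild type (7.63%) and 0 of 11 in heterozygous against wild type (5.37%). The median difference of the 11 was 0.11 log2 units in null minus all controls, beside 0.04 over all probe sets. It was 0.00 in null minus heterozygous (0.07 over all), 0.43 in null minus wild type (0.01) and 0.19 in heterozygous minus wild type (-0.06). Gp1bb and Itgb3 each have 2 probe sets among the 11. By the brightest probe set of each of the 9 genes, the median in null minus wild type was 0.17 (-0.00013 over all genes), with 6 above 0 and 3 below. In null minus all controls it was 0.07 (0.03 over all genes). Differences were above 0 for 8 of 11 probe sets in null minus all controls (55.2% of all probe sets), 6 of 11 in null minus heterozygous (58.5%), 8 of 11 in null minus wild type (50.7%) and 10 of 11 in heterozygous minus wild type (42%). Arrays did not overlap between null and all controls for 1 of 11 probe sets higher in null (3.89% of all) and 0 lower (4.3%). Between null and heterozygous these were 1 higher (12.2%) and 1 lower (9.28%), between null and wild type 1 higher (9.2%) and 0 lower (10.4%), and between heterozygous and wild type 3 higher (11.4%) and 0 lower (17.8%). The shares over all probe sets also cover those at background, while the 11 were above it on every array, so they are not a like measure. The 4 comparisons share arrays, so they are not independent of each other. A p above the threshold does not show that levels were equal, and the intervals below give the range each gene allows. In sorted cells measured in bulk, fewer cells of a type and less RNA per cell cannot be told apart.

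**Figure D1:**
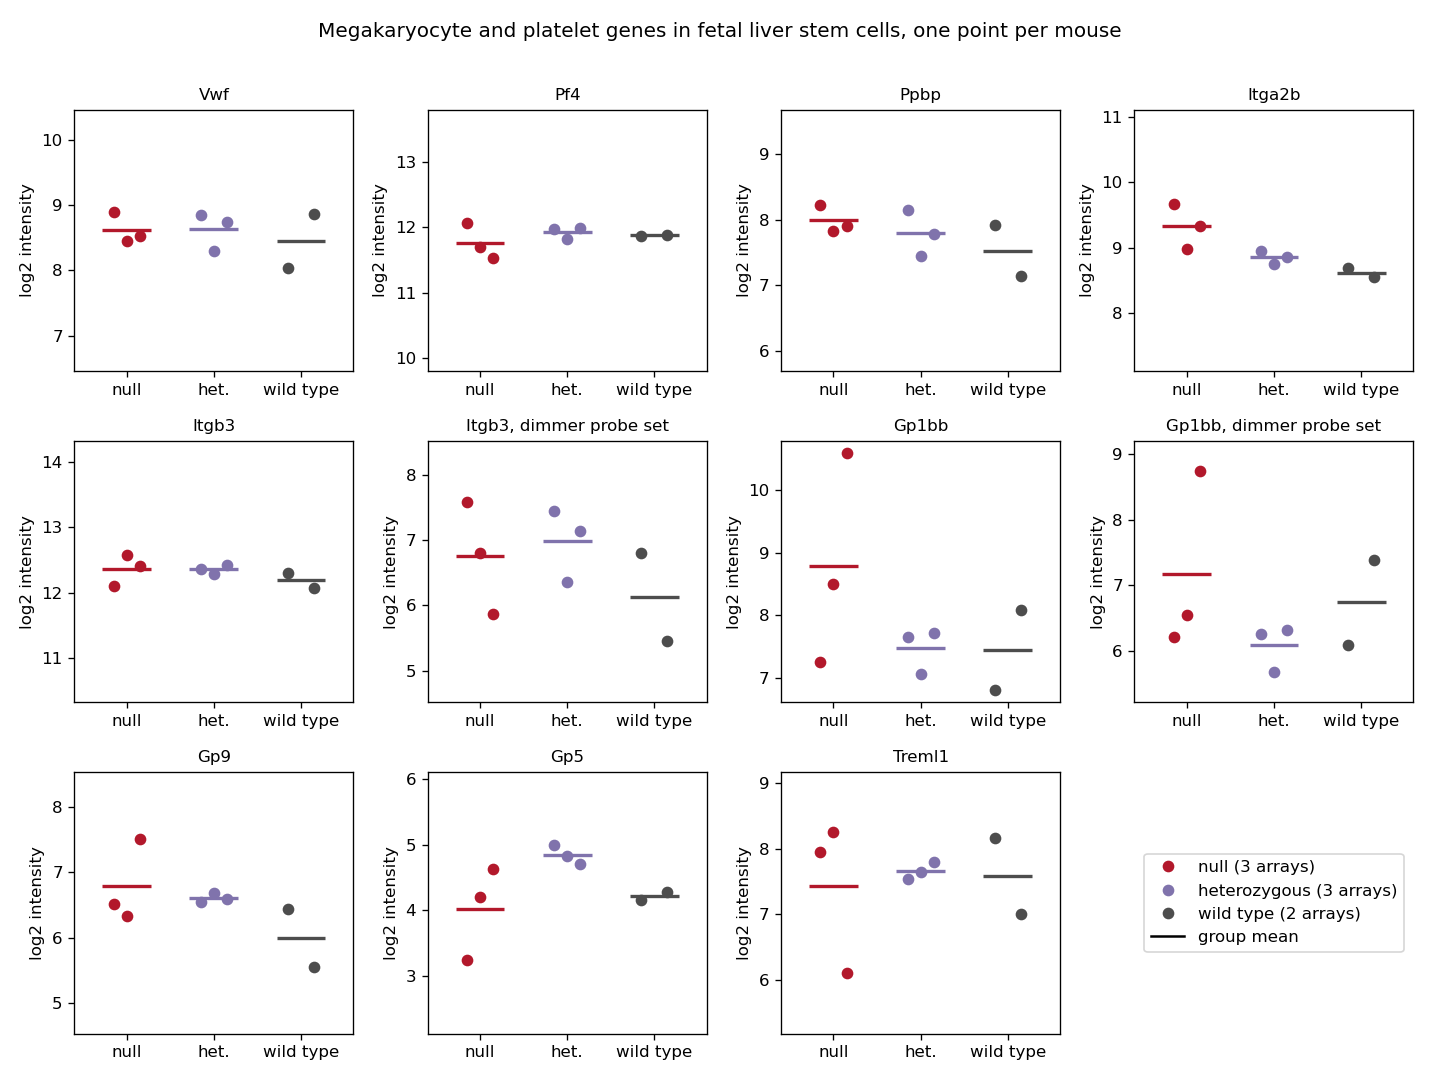
Log2 intensity of the 11 member probe sets (y axis, at least 4 log2 units in every panel) by genotype (x axis), with one point per mouse and a bar at the group mean. Itga2b is the panel in which the 3 null points stand above all others, and Gp1bb, Gp9 and Treml1 have 1 null point away from the rest.

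Itga2b, the αIIb integrin chain, was the member whose null arrays stood apart from all controls. It read 817, 506 and 647 linear units on the null arrays, against 492, 432 and 464 on heterozygous and 411 and 375 on wild-type arrays. Every null array was above every heterozygous array, and every heterozygous array above both wild-type arrays. The log2 mean was 9.33 ± 0.35 in null cells (SD, n = 3), 8.85 ± 0.09 in heterozygous cells (n = 3) and 8.62 ± 0.09 in wild-type cells (n = 2). Null minus all controls was 0.57 ± 0.17 log2 units (SE, 95% interval 0.17 to 0.98), which is 1.49-fold, with an unadjusted p of 0.0115 and a limma adjusted p of 0.277. Null minus wild type was 0.72 ± 0.21 (1.64-fold, adjusted p = 0.435), null minus heterozygous 0.48 ± 0.19 (1.39-fold, adjusted p = 0.421) and heterozygous minus wild type 0.24 ± 0.21 (adjusted p = 0.917). None of these passed after adjustment. The full order null above heterozygous above wild type, with no overlap, was met by 1 of the 11 member probe sets and by 0.375% of all. The reverse order was met by 0 of 11 and by 0.446% of all. Both shares also cover probe sets at background, while the 11 were above it on every array, so they are not a like measure.

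Its partner chain Itgb3 was nearly constant. The brightest Itgb3 probe set read 4400.2, 6087 and 5431 linear units on null arrays, against 5259, 5003 and 5513 on heterozygous and 5053 and 4314 on wild-type arrays. The groups overlapped, and null minus all controls was 0.07 ± 0.14 log2 units (SE, 95% interval -0.26 to 0.40, adjusted p = 0.864). The dimmer Itgb3 probe set read 192, 111 and 58.4 on null, 174, 81.6 and 141 on heterozygous and 111 and 43.7 on wild-type arrays. The 2 Itgb3 probe sets did not follow each other, with a Pearson r of 0.18 (Spearman 0.21) over the 8 arrays. Its null minus all controls of 0.11 ± 0.52 (adjusted p = 0.946) leaves a 95% interval of -1.10 to 1.33. The 2 integrin chains, which assemble as a pair, correlated at r = -0.04 (Spearman 0.36) over the 8 arrays, a description only.

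The GPIb-IX-V complex, which catches von Willebrand factor under flow, gave subunit values that did not move together. Gp1bb, the β chain of GPIb, read 152, 362 and 1549.7 linear units on null arrays, against 201, 134 and 209 on heterozygous and 111 and 270.5 on wild-type arrays. Null array 3 alone was far above the rest, and null array 1 lay within the controls. Null minus all controls was 1.32 ± 0.69 log2 units (SE, 2.50-fold, 95% interval -0.27 to 2.92, adjusted p = 0.506). Without null array 3 it was 0.42. The dimmer Gp1bb probe set repeated the pattern, with 74.1, 93.4 and 428 on null, 76.4, 51.0 and 79.9 on heterozygous and 67.9 and 168 on wild-type arrays. The 2 Gp1bb probe sets correlated at r = 0.93 (Spearman 0.95) over the 8 arrays, which share their RNA. The second gave null minus all controls of 0.82 ± 0.61 (adjusted p = 0.628), and 0.03 without null array 3. Septin5 is the next gene to Gp1bb in the RefSeq order, and in humans transcripts of the pair can be joined. The probe set shared by both genes was at background on all 8 arrays (4.66 to 6.93 linear units).

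Gp9, which encodes the GPIX subunit, read 91.7, 80.9 and 182 on null arrays, against 93.0, 103 and 96.7 on heterozygous and 86.9 and 47.0 on wild-type arrays. Null array 3 was again the high one and wild-type array 2 the low one. Null minus all controls was 0.43 ± 0.35 log2 units (SE, 95% interval -0.38 to 1.23, adjusted p = 0.655), and 0.07 without null array 3. All heterozygous arrays were above both wild-type arrays (0.61 ± 0.40, adjusted p = 0.898).

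Gp5, which encodes the GPV subunit that thrombin cuts, read near the lower end of what the array measures. Its values were 9.39, 18.4 and 24.8 on null arrays, against 31.9, 28.4 and 26.1 on heterozygous and 17.8 and 19.5 on wild-type arrays. Null arrays were all below heterozygous arrays and overlapped with wild type. Null minus heterozygous was -0.82 ± 0.34 log2 units (SE, unadjusted p = 0.0489, limma adjusted p = 0.438), and null minus all controls was -0.57 ± 0.34 (95% interval -1.35 to 0.21, adjusted p = 0.552). Null array 1, at 9.39, was close to that array's background of 9.29, and without it null minus heterozygous was -0.43. Within null array 3, Gp1bb was 3.14 log2 units and Gp9 1.15 above the mean of the controls, while Gp5 was 0.04 from it.

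Vwf, the ligand of that complex, is made by megakaryocytes and endothelial cells. It read 473, 349 and 369 linear units on null arrays, against 462, 316 and 429 on heterozygous and 262 and 465 on wild-type arrays. The 3 groups covered the same range. Null minus all controls was 0.06 ± 0.23 log2 units (SE, 95% interval -0.47 to 0.60, adjusted p = 0.932). Of 15 endothelial markers, Emcn, Sox17 and Robo4 were at background on every array, and the 15 summed to 743 to 888 linear units on null, 440.1 to 699.9 on heterozygous and 575 to 649 on wild-type arrays. Kdr, the receptor for VEGF, read 96.2 to 111 on null, 41.1 to 78.3 on heterozygous and 56.8 to 61.7 on wild-type arrays (0.86 ± 0.21 in null minus all controls, adjusted p = 0.171). Of the 15, 11 were above 0 and 4 below it in null minus all controls, with a median of 0.16 log2 units, and 0 passed. Tie1 read 221, 115 and 34.2 on null, 70.1, 61.2 and 47.3 on heterozygous and 29.2 and 27.0 on wild-type arrays. Among the 4 below 0 were Plvap and Lyve1. Plvap, of the fenestral diaphragm, read 8.45, 8.09 and 10.5 on null, 10.5, 13.5 and 18.6 on heterozygous and 17.3 and 23.3 on wild-type arrays (-0.84 ± 0.26, adjusted p = 0.283). Lyve1, a hyaluronan receptor, read 11.1, 6.99 and 12.8 on null, 21.0, 10.1 and 43.0 on heterozygous and 26.0 and 131 on wild-type arrays (-1.66 ± 0.74, adjusted p = 0.452). Their part in the Vwf values was not tested.

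The platelet chemokines Pf4 and Ppbp are next to each other on chromosome 5 in the RefSeq gene order. Pf4 (CXCL4), which binds heparin and is stored in alpha granules, read 4280.0, 3319 and 2964 on null arrays, against 4023, 3611 and 4043 on heterozygous and 3729.6 and 3785 on wild-type arrays. Null arrays lay both above and below all the controls. Null minus all controls was -0.14 ± 0.14 log2 units (SE, adjusted p = 0.716), a fold of 0.907 with a 95% interval of 0.726 to 1.13. Ppbp, the precursor of the neutrophil attractant CXCL7, read 299, 228 and 240.2 on null arrays, against 284, 175 and 220.2 on heterozygous and 241 and 141 on wild-type arrays. Its null minus all controls was 0.30 ± 0.24 (95% interval -0.25 to 0.85, adjusted p = 0.645), with overlap between all groups. Pf4 and Ppbp correlated at r = 0.19 (Spearman 0.31) over the 8 arrays, whereas Ppbp and Itga2b correlated at 0.71 (0.64). Of the genes around them, Cxcl5 was above background on 8 arrays (9.84 to 69.7 linear units), Cxcl3 on 1 array, and Cxcl15 and Rassf6 on 0.

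Treml1, a receptor held in alpha granules and brought to the surface on activation, read 247, 305 and 68.5 on null arrays, against 187, 199 and 222 on heterozygous and 287 and 128 on wild-type arrays. Null array 3 was the lowest and null array 2 the highest of all 8. Null minus all controls was -0.20 ± 0.49 log2 units (SE, 95% interval -1.34 to 0.95, adjusted p = 0.891), and without null array 3 its sign turned, to 0.47.

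**Figure D2:**
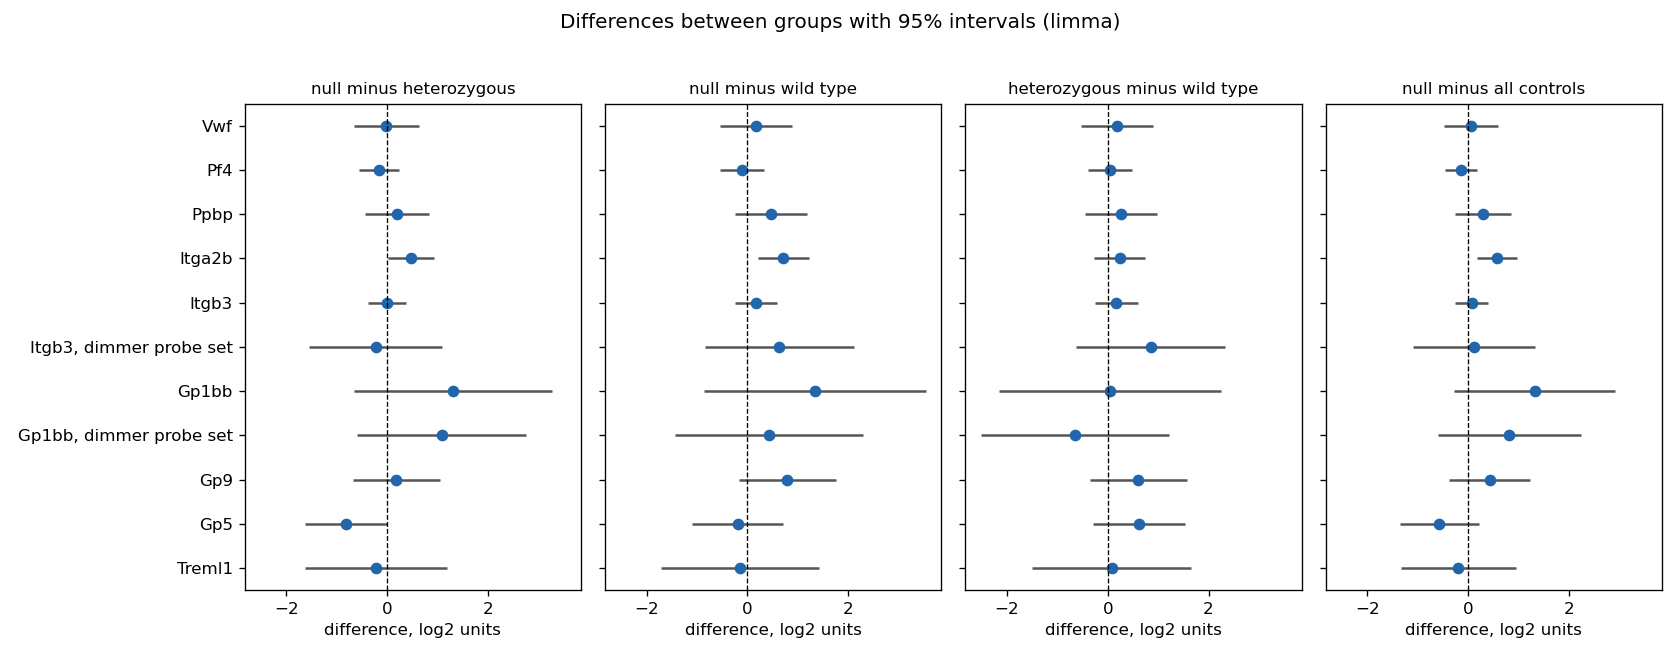
Difference in log2 units (x axis) for each member probe set (y axis) in the 4 comparisons, with the limma estimate as a point and its 95% interval as a line. The intervals of Pf4 and the brightest Itgb3 probe set are the narrowest, that of Itga2b lies above 0 in all 3 comparisons with null, and those of Gp1bb are widest.

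The 3 null mice differed from one another more than the 5 controls did in every member probe set but those of Vwf and Ppbp. Examples are Gp1bb (SD 1.69 against 0.52 log2 units), Treml1 (1.17 against 0.42), Itga2b (0.35 against 0.15) and Pf4 (0.27 against 0.07). Vwf (0.23 against 0.37) and Ppbp (0.21 against 0.40) went the other way. The SDs come from 3 null arrays and from 5 control arrays that pool heterozygous and wild type. The share of all probe sets with a larger null SD was not computed, so the larger spread cannot be called particular to these genes. Null array 3 had 4 of 11 probe sets more than 1 log2 unit (2-fold) from the control mean: Gp1bb at 3.14, its dimmer probe set at 2.40, Gp9 at 1.15 and Treml1 at -1.53. Null array 2 had 1 (Gp1bb at 1.04), and null array 1 had 1 (Gp5 at -1.36). Among the 12859 probe sets above background on every array, 30.8% lay that far from the control mean on null array 3, 23.8% on null array 2 and 37.4% on null array 1. The 4 of 11 on null array 3 are thus near the share of that array as a whole. On each null array 7 of the 11 probe sets were above the control mean and 4 below it, where 34.6%, 43.7% and 38.4% of the 12859 were above it on null arrays 1, 2 and 3. The within-group standard deviation was 0.17 log2 units for Itgb3, 0.18 for Pf4 and 0.23 for Itga2b, against a median of 0.59 over the same 12859 probe sets. It was 0.35 for both Vwf and Ppbp, 0.46 for Gp5 and 0.49 for Gp9. The dimmer Itgb3 probe set (0.78), Treml1 (0.83), the dimmer Gp1bb probe set (0.99) and Gp1bb (1.17) were above that median. Gp1bb correlated at -0.78 with both Treml1 and Pf4 (Spearman -0.38 and -0.40) over the 8 arrays, among which null array 3 has the highest Gp1bb and the lowest Treml1 and Pf4 values.

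**Figure D3:**
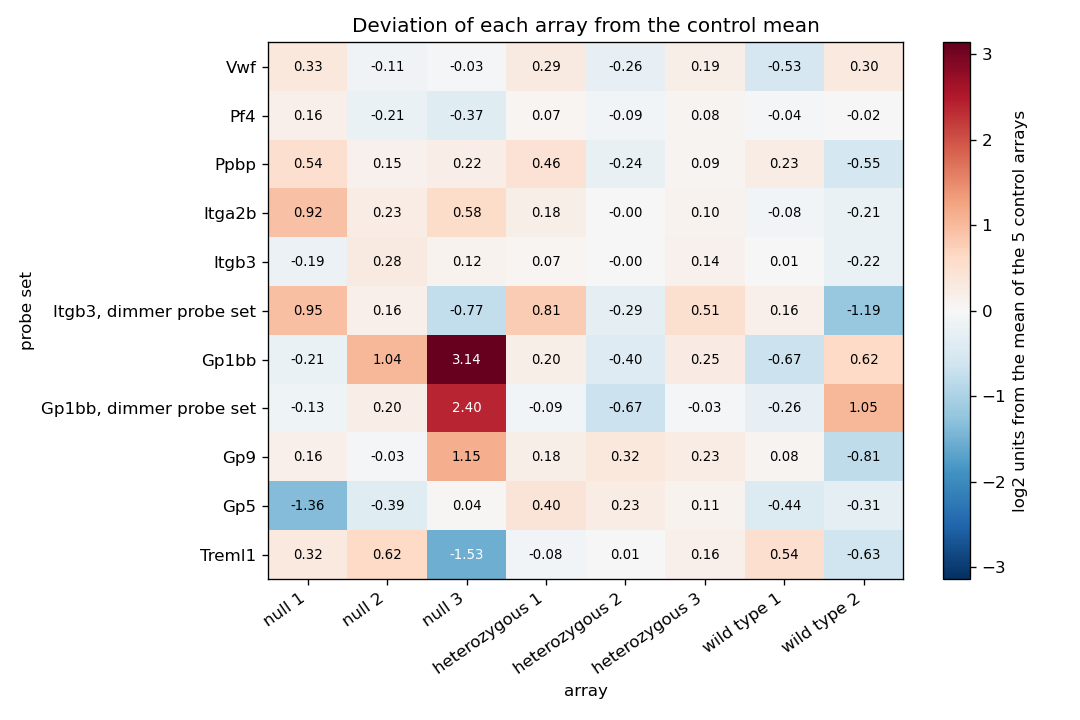
Log2 difference of each array (x axis, null left, then heterozygous and wild type) from the mean of the 5 control arrays for each member probe set (y axis), printed in the cells and coloured red above and blue below that mean. Null array 3 holds the values farthest from the control mean, 3.14 and 2.40 for the Gp1bb probe sets and -1.53 for Treml1, while the Pf4 row stays between -0.37 and 0.16.

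Which genes followed the brightest members was described by correlation of log2 level over the 8 arrays among 11890 genes. For Itgb3 the closest were Wsb1 (Pearson r = 0.97), Wdfy4 (0.97) and Tulp3 (0.97), and 29 genes exceeded 0.9. For Pf4 they were Bzw2 (0.95), Cdc7 (0.95) and Zfp160 (0.95), with 24 genes above 0.9. No other member was among them: the highest of the remaining members was Gp5 for Itgb3 (0.47) and Treml1 for Pf4 (0.54). All of these correlations rest on the same 8 libraries, and the named genes were picked as the highest of the 11890. How many genes would exceed 0.9 by chance was not computed.

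Among the transcription factors and receptors of the lineage, Gata1, the X-linked zinc finger factor needed for megakaryocyte and red cell maturation, was higher in null cells than in wild type. It read 181, 204 and 214 on null arrays, against 135, 131 and 158 on heterozygous and 86.8 and 82.1 on wild-type arrays. The groups did not overlap and followed the same order as Itga2b. Null minus wild type was 1.24 ± 0.15 log2 units (SE, 2.36-fold, limma adjusted p = 0.0355), and null minus all controls was 0.80 ± 0.24 (1.74-fold, adjusted p = 0.272). The call was lost without any 1 of the 8 arrays (adjusted p = 0.0523 to 0.107). It was the 1 of 18 measured genes of this list to pass in null against wild type, where 0.517% of all genes passed, and 0 of 18 passed in each of the other comparisons (0.934% of all genes in null against all controls, 0.77% in null against heterozygous and 0% in heterozygous against wild type). The median of the list was -0.12 in null minus wild type and -0.01 in null minus all controls, against 0.00 and 0.03 over all genes. Zfpm1, the partner protein of Gata1 known as FOG1, read 363, 138 and 311 on null, 156, 27.9 and 50.5 on heterozygous and 124 and 76.3 on wild-type arrays (null minus all controls 1.77 ± 0.60, adjusted p = 0.327). These values are of its brightest probe set, where null minus heterozygous was 2.05. With the mean of its probe sets it was 0.78.

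**Figure D4:**
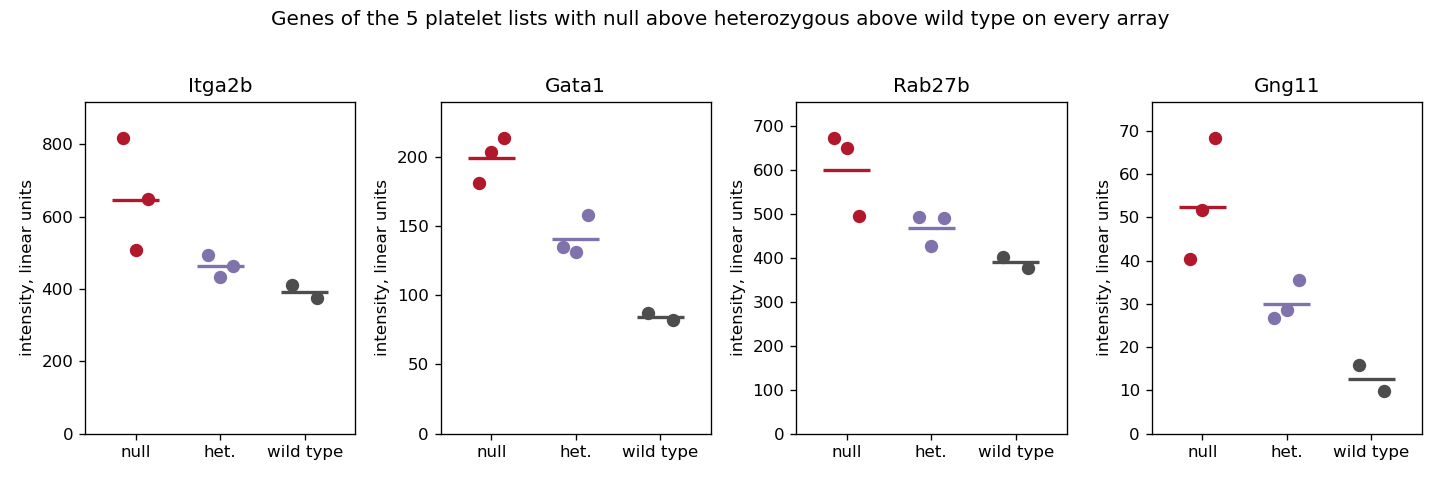
Linear intensity (y axis, from 0) by genotype (x axis) for the 4 genes of the members and the platelet lists in which every null array was above every heterozygous array and every heterozygous array above both wild-type arrays. Points are mice and bars are geometric means. Gata1 passed the test in null against wild type (2.36-fold), and Itga2b, Rab27b and Gng11 did not.

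Platelet granule and shape genes held 2 more with that order, out of 27 measured, an order met by 0.375% of all probe sets. That share also covers probe sets at background, while the 27 are genes read at their brightest probe set, so it is not a like measure. Rab27b, a small GTPase of granule release, read 673, 649 and 495 on null arrays, against 493, 426 and 489 on heterozygous and 403 and 377 on wild-type arrays (null minus wild type 0.62 ± 0.18, adjusted p = 0.399). For Rab27b, null minus all controls was 0.46 ± 0.15 (adjusted p = 0.321). Gng11, a G protein γ subunit, read 40.4, 51.7 and 68.4 on null arrays, against 26.6, 28.5 and 35.6 on heterozygous and 15.9 and 9.87 on wild-type arrays. Its null minus wild type of 2.06 ± 0.30 log2 units (4.18-fold) had an adjusted p of 0.0664 and missed the threshold. Against all controls the difference was 1.31 ± 0.43 (adjusted p = 0.313). Others of the list had lower null values. Clu (clusterin), a granule protein, read 380.5, 118 and 272 on null, 1370.8, 401 and 372 on heterozygous and 482 and 438 on wild-type arrays (null minus all controls -1.21 ± 0.52, adjusted p = 0.435). Vamp8, a SNARE protein of granule release, read 309, 428 and 799 on null, 926, 803 and 669.6 on heterozygous and 904 and 758 on wild-type arrays (-0.77 ± 0.29, adjusted p = 0.385). None of the 27 genes passed in any of the 4 comparisons, and the list's median in null minus all controls was 0.04.

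Of 23 measured platelet receptor and adhesion genes, 0 passed in any comparison, with a median of 0.00 in null minus all controls, and Cd36 was at background on all arrays. As for Gp1bb, null array 3 alone was high for F2rl3 (PAR4), the thrombin receptor of mouse platelets, which read 206 there and 5.93 to 10.6 on the other 7 arrays. Jam3, a junctional adhesion molecule, likewise read 86.6 there and 6.82 to 19.8 elsewhere, and among the transcription factors Mrtfa, a cofactor of Srf, read 217 there and 8.05 to 26.4 elsewhere. These 3 genes were singled out after their values were seen, and others of the same lists did not share the pattern. Esam, an adhesion molecule, read 24.5, 10.9 and 13.5 on null, 28.9, 20.9 and 39.4 on heterozygous and 19.3 and 91.9 on wild-type arrays (null minus all controls -1.13 ± 0.53, adjusted p = 0.472). Pecam1 (CD31) read 133, 52.0 and 42.7 on null, 73.4, 34.1 and 35.2 on heterozygous and 27.4 and 11.9 on wild-type arrays (1.10 ± 0.60, adjusted p = 0.521). Srf itself read 95.2, 362 and 429 on null, 424, 365 and 686 on heterozygous and 479 and 598 on wild-type arrays (-1.02 ± 0.49, adjusted p = 0.476), with null array 1 the low one.

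Of 20 measured genes of integrin and platelet signalling, 0 passed in any comparison, with a median of 0.12 in null minus all controls. Tln1 (talin), which binds the tail of β3 integrin and switches the αIIbβ3 receptor on, had the reverse order. It read 654, 944 and 1042 on null arrays, against 1123, 1118 and 1080.4 on heterozygous and 1295 and 1889.7 on wild-type arrays (null minus wild type -0.86 ± 0.25, adjusted p = 0.413). Its null minus all controls was -0.56 ± 0.24 (adjusted p = 0.428). Fermt3 (kindlin-3), the other activator of that tail, read 1091, 444 and 1216 on null, 638, 748 and 558 on heterozygous and 363 and 162 on wild-type arrays (null minus wild type 1.79 ± 0.51, adjusted p = 0.403). For Fermt3, null minus all controls was 0.94 ± 0.56 (adjusted p = 0.552), and null overlapped with heterozygous. The Src family kinase Fyn read 82.8, 44.1 and 40.9 on null arrays, all below the 94.7 to 246 of the 5 controls (-1.36 ± 0.38, adjusted p = 0.234).

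Markers of hepatocytes and macrophages, other cells of the fetal liver, had lower sums on the null arrays. The 10 measured hepatocyte and hepatoblast markers summed to 80.7 to 109.6 linear units on null, 645 to 1131 on heterozygous and 219 to 638 on wild-type arrays. Afp, the fetal albumin relative, fell in null against all controls (-5.11 ± 0.79 log2 units, limma adjusted p = 0.0403, lost without heterozygous array 1, 2 or 3, null array 2 or 3 or wild-type array 2, up to 0.122). The Afp call held in 7 of 17 alternatives and was also lost with array weights, cyclic loess, quantile normalization or the pseudocount of 32 (adjusted p up to 0.142). Apoa2 fell in null against heterozygous (-3.32 ± 0.37, adjusted p = 0.0223, lost without heterozygous array 1 or 3 or null array 1 or 3, up to 0.119), and this call held in 13 of 18 alternatives, being lost with the pseudocount too. Afp was at background on null arrays 2 and 3 and Apoa2 on null array 1, so the floor sets part of the size of both differences. The 14 macrophage markers summed to 108 to 130.5 on null, 379 to 522 on heterozygous and 328 to 916 on wild-type arrays, and Lyz2 (lysozyme) fell in null against all controls (-2.54 ± 0.34, adjusted p = 0.0207, lost without heterozygous array 1 or 2, null array 1 or wild-type array 1, up to 0.0733). The Lyz2 call held in 9 of 17 alternatives and was lost in the same 4 settings as Afp (adjusted p up to 0.117). Adgre1, Cd163 and Cd5l were at background on all arrays. The 12 red cell markers summed to 956 to 2310.2 on null, 3179 to 3881 on heterozygous and 1996 to 3282 on wild-type arrays. Car2 weighs heavily in these sums, at 359 to 1487, 1750 to 2196 and 914 to 1969. Of the 12, 0 passed in any comparison. In null minus all controls 4 were above 0 and 8 below, and in null minus wild type 6 and 6. Epor read 257 to 333 on null, 255 to 305 on heterozygous and 149 to 180 on wild-type arrays. The 10 mast cell markers, 5 of them at background on all arrays, summed to 67.9 to 77.8 on null, 59.2 to 62.8 on heterozygous and 66.5 to 71.4 on wild-type arrays. Over the same arrays the 9 members summed to 10769 to 11477 linear units on null, 10001 to 11223 on heterozygous and 9546 to 10199 on wild-type arrays. Most of that sum is Itgb3 (4314 to 6087) and Pf4 (2964 to 4280), so it says little of the other members. The median of the 9 in null minus all controls was 0.07 log2 units, with 6 above 0 and 3 below. The part of these cells in the member values was not tested. The 4 interferon-induced genes Rsad2, Ifit1, Isg20 and Usp18 were higher in null cells in all 3 comparisons with null. Usp18 differed by 6.42 ± 0.24 log2 units against all controls (limma adjusted p = 5.08e-05), and its heterozygous arrays were all at background. These genes were chosen with earlier results of these data known, and changes this large do not show whether smaller differences could be found.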

How the data were processed

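RNA of 8 mice was measured on 1 array each. Per the submitters' processing notes the values come from RMA; the sources used here do not give its software or version. The authors deposited them as linear intensity, and log2 was taken with no further scaling. Of 45101 probe sets, 64 controls were left out and 45037 tested. The platform annotation gave 34945 of them 1 gene, 932 several and 9160 none, and 34741 symbols were matched to RefSeq by gene number. Unused sample columns numbered 0. Groups came from the sample titles.

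Three-group (5 residual degrees of freedom) and null against pooled-control (6) models were fitted in limma 3.58.1 (R 4.3.3, lmFit and eBayes, two-sided), tested on simulated data. A gene is its brightest probe set, taken over 18193 genes.

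Every member probe set is named. From each other list come the genes past the threshold, or up to 4 by size of null minus all controls if above background on 3 arrays, and for the 2 brightest members the 3 genes most correlated. Genes singled out for their order across the 3 groups were chosen after their values were seen. Members, lists and alternatives were chosen with earlier results of these data known. Alternatives changed the normalization, pseudocount, filters, probe set summary, spread and arrays used.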

Additional observations from a re-analysis of the deposited data

Results flagged for a closer look

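Gp9 on wild-type array 2 read 47.0 linear units and lay further below the other controls than the spread among the 5 control arrays allows by Dixon's ratio. The other controls read 93.0, 103 and 96.7 on heterozygous arrays and 86.9 on wild-type array 1, and the null arrays 91.7, 80.9 and 182. Chance singles out about 1 in 20 such groups, and 11 member probe sets were examined. The same array had the lowest value among the controls for Itga2b (375), Ppbp (141), Itgb3 (4314 and, at the dimmer probe set, 43.7) and Treml1 (128), and the second highest of all 8 arrays for the dimmer Gp1bb probe set (168). Among the controls it was also the highest for Vwf (465) and for the brightest Gp1bb probe set (270.5). Without wild-type array 2, Gp9 differed by 0.35 log2 units between null and wild type, against 0.79 with it. No cause was tested.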

How the results depend on the processing

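Across normalizations (quantile, cyclic loess), a pseudocount of 32, filters, probe set summaries, spread models and leaving out each array, 0 member probe sets passed the threshold in any comparison. The lowest adjusted p of a member was 0.0837, for Itga2b in null minus all controls. Of 765 recomputed member differences 49 changed sign, in 22 of 44 differences, none over 0.63 log2 units in size as reported. Cyclic loess turned Pf4 in null minus all controls to 0.10. Gp1bb in the same comparison ran from 0.42 to 2.09 when arrays were left out, lowest without null array 3. Itga2b stayed above 0 in null minus all controls, at 0.40 to 0.75 when arrays were left out and 0.51 to 0.90 under the other settings. The cause of these changes was not tested.

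Counts over all probe sets moved more. Null against heterozygous (226) gave 130 with an intensity trend and robust spread, 126 with the pseudocount, and 63 to 581 when arrays were left out, highest without null array 2 and lowest without heterozygous array 1 (73 and 82 without heterozygous arrays 2 and 3). Null against wild type (147) gave 90 with array weights, 4 with the arrays of the compared groups only, 62 with the pseudocount, and 65 to 340 when arrays were left out, highest without wild-type array 1 and lowest without heterozygous array 1 (90 and 68 without heterozygous arrays 2 and 3, and 239 without null array 2). Heterozygous against wild type (1) gave 0 with the compared groups only, the brightest or mean probe set per gene, or either filter, 5 with the pseudocount, and 0 to 164 when arrays were left out, 164 without wild-type array 1 and 38 without wild-type array 2. Null against all controls (262) gave 156 to 792 when arrays were left out, highest without null array 2. Leaving out null array 3 gave 409, and leaving out heterozygous array 1, 2 or 3 gave 156, 170 or 168.

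Alternatives for the list genes were added after seeing the data: Gata1 in null against wild type passed in 5 of 18 (adjusted p = 0.0202 to 0.527) and Gng11 in 3 of 18 (0.0402 to 0.408). No paired analysis was possible because the titles give no replicate number shared between groups. Depth is set by signal over background, and Gp5, near it on null array 1, is the member it limits most. With 2 wild-type and 3 null arrays, the intervals of Treml1 and the dimmer Gp1bb probe set cover changes of over 2-fold in both directions in null against wild type.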
